A study of Mus musculus with 60 samples.

Results

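The genes of the synapse described here are 35 scaffold, receptor, adhesion and vesicle genes chosen by name, of which 33 were measured in fetal mouse brain among 19938 genes named on the array. The list holds 16 genes whose products act mainly in the presynaptic terminal, of which 15 were measured, and 19 that act mainly in the postsynaptic membrane, of which 18 were measured. Each gene was read from a row of the deposited table (a transcript cluster, the probes of 1 gene) that the platform annotation pairs with that symbol alone. Where a gene had several such rows, as Shank2 and Unc13a with 3 each, the row with the highest mean was used. Grin1 and Vamp2 had no row of 1 symbol and were not analysed here.

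Brains of fetuses carried by 60 dams were profiled on Affymetrix Mouse Gene 1.0 ST arrays, with RNA of all fetuses of a dam pooled on 1 array, which makes each dam a replicate. All mice were of the strain background B6.129, and the labels give 4 genotypes. They are PON1-knockout (KO), wild type (WT) and mice carrying human PON1 as tgHuPON1Q192 (Q-tg) or tgHuPON1R192 (R-tg). PON1 is a blood enzyme that hydrolyses chlorpyrifos oxon (CPO), to which the body converts the insecticide chlorpyrifos. Dams received CPO on gestational days 6 to 17, which is 12 days, and fetal brains were taken on day 18. Doses were 0, 0.50 or 0.75 mg/kg/d in KO and 0, 0.75 or 0.85 mg/kg/d in the other genotypes, with 5 arrays in each of the 12 groups. The controls are the dose 0 groups of the same genotype. Dams with outlying brain cholinesterase activity were left out before the others were drawn at random, per the series description. The promoter that drives the human transgenes is not given in the sources used here.

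At a chemical synapse, an arriving impulse lets vesicles fuse with the presynaptic membrane through a complex of SNARE proteins, at a site organised by large active zone proteins. The glutamate that is released opens AMPA and NMDA receptors, which scaffold proteins hold in the postsynaptic density. Neurexins on the presynaptic side bind neuroligins on the postsynaptic side across the cleft. In the mouse brain before birth neurons already transcribe most of these genes, while most synapses form after birth.

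The 4 promoters below are those of the 2 members that hold the RE1 match described next and of a pair with a high correlation. RefSeq gives a promoter, from 250 bases before to 50 after the start, for 24 of the 35 genes on GRCm38.p6. The core of the RE1 element, through which the repressor REST silences neuronal genes outside neurons, was searched on both strands as CAGCACC followed by any 2 bases and then GGACAG, with at most 1 mismatch. It was found in 57 of 27025 genes with a promoter (0.211%), and among the members in Syn1 and Gria2, each with 1 mismatch. These 2 members lay on opposite ends of the second axis of variation described further on. Capitals mark the match, which runs from base -230 to -216 of the start in Syn1 (chrX:20920869-20921168, minus strand) and from -170 to -156, on the opposite strand, in Gria2 (chr3:80802786-80803085, minus strand).
Syn1: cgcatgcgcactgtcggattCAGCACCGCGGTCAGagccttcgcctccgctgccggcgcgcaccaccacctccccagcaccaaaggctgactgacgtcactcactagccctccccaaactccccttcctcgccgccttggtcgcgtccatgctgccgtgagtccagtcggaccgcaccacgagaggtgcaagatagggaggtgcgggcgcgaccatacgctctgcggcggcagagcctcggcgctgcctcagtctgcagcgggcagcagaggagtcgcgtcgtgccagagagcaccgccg
Gria2: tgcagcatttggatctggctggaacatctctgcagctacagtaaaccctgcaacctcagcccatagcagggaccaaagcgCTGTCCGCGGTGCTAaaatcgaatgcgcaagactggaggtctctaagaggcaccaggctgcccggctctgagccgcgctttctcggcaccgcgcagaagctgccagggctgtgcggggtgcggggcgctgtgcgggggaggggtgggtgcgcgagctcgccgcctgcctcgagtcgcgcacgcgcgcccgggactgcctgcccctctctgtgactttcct

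Cplx1 and Sv2a had the highest Pearson correlation (r 0.78, rho 0.67) of any pair of members whose promoters are both in the table. By rho, pairs such as Syp with Sv2a (0.75) and Syn1 with Sv2a (0.74) were closer. Both hold the E box CAGCTG (capitals), at -82 to -77 in Cplx1 (chr5:108549978-108550277, minus strand) and at -229 to -224 in Sv2a (chr3:96180977-96181276, plus strand). Sv2a also holds the GC box GGGGCGGGG (capitals) on its opposite strand, at -156 to -148.
Cplx1: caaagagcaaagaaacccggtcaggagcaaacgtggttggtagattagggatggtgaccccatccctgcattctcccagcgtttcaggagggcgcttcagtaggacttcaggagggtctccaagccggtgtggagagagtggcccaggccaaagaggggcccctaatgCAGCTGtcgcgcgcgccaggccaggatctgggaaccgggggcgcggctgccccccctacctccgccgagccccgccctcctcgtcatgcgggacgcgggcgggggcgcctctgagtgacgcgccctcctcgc
Sv2a: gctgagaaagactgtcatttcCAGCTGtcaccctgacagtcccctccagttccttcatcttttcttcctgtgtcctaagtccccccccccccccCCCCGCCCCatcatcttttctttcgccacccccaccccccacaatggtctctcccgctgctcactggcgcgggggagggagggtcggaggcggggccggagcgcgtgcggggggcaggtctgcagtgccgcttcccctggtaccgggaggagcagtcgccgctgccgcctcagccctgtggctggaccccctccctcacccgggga
The E box was found in the promoters of 10 of 24 members (41.7%) against 18.3% of all genes. The GC box was found in 9 of 24 (37.5%) against 12.9%, and it lies in promoters of high GC content, whose median was 62.4% in members and 52.8% in all genes. The CRE letters TGACGTCA were found in Syn1 alone of the members, against 2.03% of all genes, and TATAAA in Dlg2 alone, against 15.7%. Both strands were searched for each of these, and no 2 matches overlapped in a member. These are matches of letters, described without a test.

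Before any comparison, Pon1 was set against the labels. Its log2 signal went against the genotype label in 10 arrays, high in 5 labelled KO and low in 5 labelled otherwise. A high signal was taken to go with the label in Q-tg and R-tg as in WT, which was not tested. Groups are therefore named by label throughout, and the median of the members in each contrast is given with and without these arrays. All 33 members lay above 6.54, the 95th percentile of 1035 olfactory receptor rows, which served as the level of genes not expressed in brain. Of the 13 other neuronal markers all lay above it too, with means from 8.96 to 12.89. No file or label gives a hybridisation or scan batch, so none could be tested. Pools also differed in sex. Xist, transcribed from the inactive X chromosome of females, was below the olfactory receptor level in 10 arrays, and the Y-linked Eif2s3y in 6 others. Of these 16 arrays 4 were in WT at 0.75 mg/kg/d and 4 in Q-tg at 0.75, with 0 to 2 in each other group. The members Dlg3, Gria3, Nlgn3, Syn1 and Syp lie on the X chromosome, and the part of sex in the results was not tested. Nothing says more of a replicate than that it is another dam, and the number of arrays limits the precision.

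The scaffold genes of the postsynaptic density were all expressed. Signals here are log2 values made with RMA, each given as the mean of 60 arrays with the range over them, and since probes differ in how strongly they bind, levels of different genes are not ranked. Shank1, a scaffold that ties receptor complexes to the actin skeleton, had a mean of 9.45 and ran from 9.10 to 9.79. Its relatives Shank2 and Shank3 had 8.80 (8.50 to 9.11) and 8.39 (8.24 to 8.69). Homer1, which links Shank proteins to metabotropic glutamate receptors, had 9.24 (9.08 to 9.46). The membrane-associated guanylate kinases that anchor receptors had 10.65 (10.48 to 10.85) for Dlg2, 8.88 (8.67 to 9.03) for Dlg3 and 10.34 (10.20 to 10.51) for Dlg4. Among these 7 the spread between dams of a group was smallest in Dlg4 (SD 0.062) and largest in Shank2 (SD 0.124).

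Receptor subunits and CaMKII were expressed as well. The NMDA receptor subunit Grin2b, prominent in the fetal brain, had a mean of 10.63 (10.36 to 10.94). Grin2a, whose transcript rises after birth, had 7.84 (7.49 to 8.11), and its SD within groups, 0.126, was the largest of all 33 members. The AMPA receptor subunits had 10.68 for Gria1, 11.62 for Gria2, 9.92 for Gria3 and 10.20 for Gria4, with an SD within groups from 0.073 to 0.093. Camk2a and Camk2b, the kinase subunits that adjust synapse strength, had 9.47 (9.27 to 9.70) and 11.25 (11.13 to 11.40). The neuroligins had 10.21 for Nlgn1, 10.04 for Nlgn2 and 10.71 for Nlgn3. Nlgn3 ran over 60 arrays from 10.61 to 10.85 and varied least among the postsynaptic members (SD 0.053).

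On the presynaptic side, the neurexins had 10.35 (10.20 to 10.52) for Nrxn2 and 10.86 for Nrxn3, whose SD within groups was 0.053. The active zone was represented by Bsn and Pclo, the giant scaffold proteins Bassoon and Piccolo, at 8.49 (8.20 to 8.74) and 10.08 (9.90 to 10.28). Rims1, which docks vesicles, had 9.98, and Unc13a, which primes them for fusion, had 9.86. The membrane SNAREs Snap25 and Stx1a had 11.27 (11.11 to 11.46) and 9.12 (8.95 to 9.33), and the complexins, which clamp the SNARE complex, had 9.47 for Cplx1 and 9.07 for Cplx2. Cplx1 had the widest spread of the presynaptic members (SD 0.110). The vesicle proteins had 10.10 for Syn1 and 10.01 for Syn2, the synapsins that tether vesicles, 10.67 for Syp, 10.88 for Sv2a and 11.75 for Syt1, the calcium sensor of release.

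**Figure D1:**
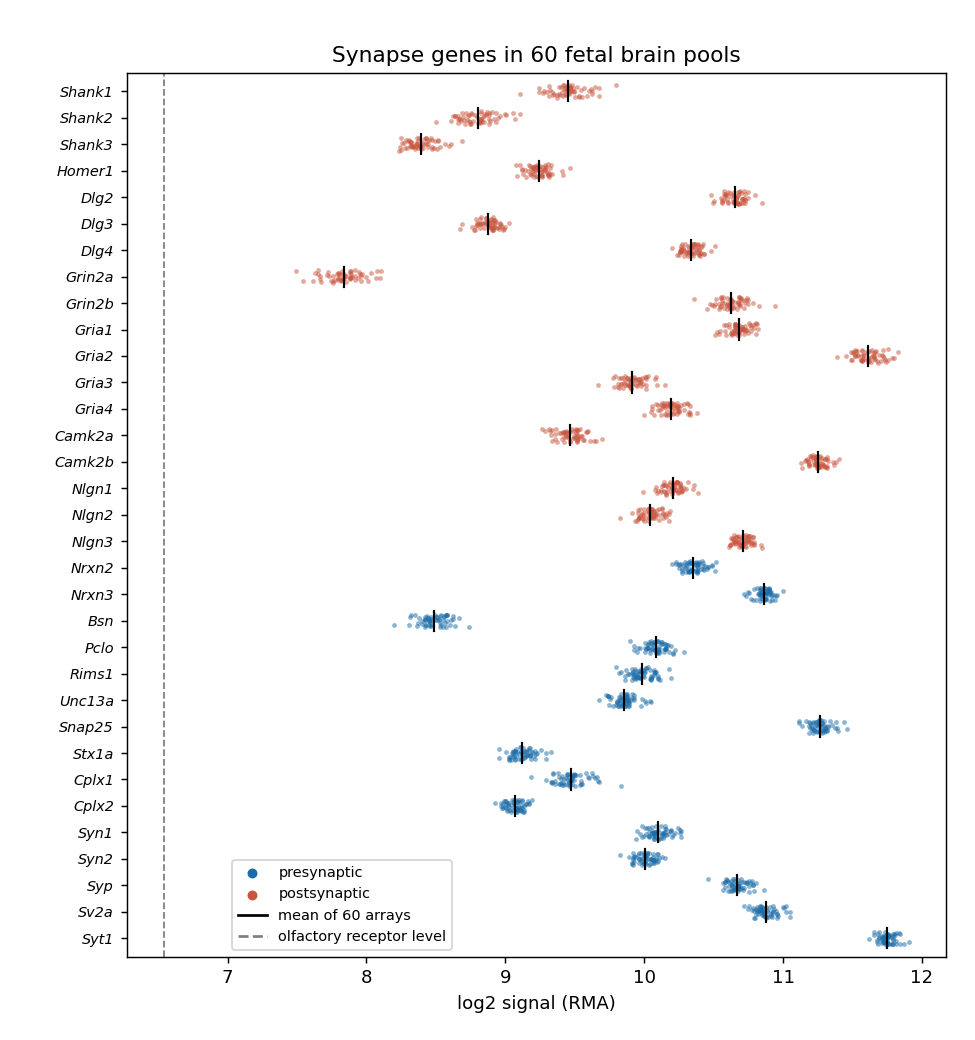
Log2 signal (horizontal axis) of 33 synapse genes in 60 fetal brain pools, 1 point per array, with postsynaptic genes in red and presynaptic genes in blue. Black bars are means of 60 arrays and the dashed line is the olfactory receptor level of 6.54. All genes lie above that line, and their means run from 7.84 (Grin2a) to 11.75 (Syt1).

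The spread of the members was small next to that of the array. The median SD between dams of a group was 0.073 over the 33 members, against 0.093 over the 15611 rows above the olfactory receptor level and 0.108 over all 21789 rows tested. The means of the 12 groups spanned 0.071 (Syn2) to 0.216 (Grin2a) log2 units, with a median of 0.117 in the members and 0.158 in all rows.

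No member passed the test for a difference among the 12 labelled groups. In limma's moderated F test, adjusted by Benjamini-Hochberg over all 21789 rows, 0 members and 0% of all rows passed 0.05, and the smallest adjusted p of a member was 0.95. Without adjustment 2 members, Stx1a and Bsn, were under 0.05, against 4.84% of all rows. Homer1 had the next smallest p. In this whole-tissue RNA, fewer cells of a type and less RNA per cell cannot be told apart.

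Stx1a, the membrane SNARE syntaxin, read 9.11, 9.06, 9.03, 9.05 and 9.11 in WT replicates 1 to 5 at dose 0, 9.13, 9.11, 9.21, 9.14 and 9.02 at 0.75 mg/kg/d, and 9.11, 9.01, 9.03, 9.07 and 9.15 at 0.85. In KO it read 9.12, 9.18, 9.15, 9.15 and 9.17 at dose 0, 9.26, 9.19, 9.18, 9.29 and 9.19 at 0.50, and 9.13, 9.16, 9.21, 9.07 and 9.10 at 0.75. The 3 WT groups overlapped. KO at 0.50 had the highest group mean of the 12 (9.22 ± 0.05, SD, n = 5), with 4 of its 5 arrays above all KO controls. In Q-tg, Stx1a read 9.14, 9.08, 9.30, 9.09 and 9.11 at dose 0, 9.10, 9.07, 9.04, 9.21 and 9.15 at 0.75, and 9.22, 9.07, 9.18, 9.15 and 9.13 at 0.85. In R-tg it read 9.33, 9.13, 9.07, 9.06 and 9.18 at dose 0, 9.07, 9.06, 9.23, 9.12 and 9.05 at 0.75, and 8.95, 9.02, 8.95, 9.05 and 9.17 at 0.85. The R-tg group at 0.85 had the lowest mean (9.03 ± 0.09), yet its replicate 5 lay within the range of the controls.

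Bsn, the active zone scaffold Bassoon, read 8.37, 8.47, 8.45, 8.40 and 8.56 in WT at dose 0, 8.57, 8.50, 8.58, 8.54 and 8.57 at 0.75, and 8.58, 8.53, 8.52, 8.50 and 8.44 at 0.85. In KO the values were 8.53, 8.57, 8.45, 8.44 and 8.44 at dose 0, 8.45, 8.46, 8.54, 8.74 and 8.42 at 0.50, and 8.64, 8.36, 8.42, 8.42 and 8.46 at 0.75. All groups of both genotypes overlapped with their controls. In Q-tg they were 8.32, 8.40, 8.58, 8.56 and 8.42 at dose 0, 8.46, 8.42, 8.20, 8.45 and 8.45 at 0.75, and 8.51, 8.55, 8.50, 8.60 and 8.55 at 0.85. In R-tg they were 8.67, 8.51, 8.53, 8.61 and 8.62 at dose 0, 8.63, 8.46, 8.38, 8.56 and 8.35 at 0.75, and 8.32, 8.43, 8.42, 8.31 and 8.52 at 0.85. The R-tg controls were the highest of the 12 groups (8.59 ± 0.07), and 4 of the 5 R-tg arrays at 0.85 lay below all of them.

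Homer1, the Shank-binding scaffold, read 9.14, 9.26, 9.21, 9.19 and 9.22 in WT at dose 0, 9.46, 9.28, 9.34, 9.26 and 9.32 at 0.75, and 9.18, 9.23, 9.26, 9.11 and 9.08 at 0.85. In KO it read 9.31, 9.28, 9.20, 9.25 and 9.33 at dose 0, 9.32, 9.23, 9.28, 9.42 and 9.23 at 0.50, and 9.24, 9.27, 9.30, 9.31 and 9.13 at 0.75. WT at 0.75 had the highest mean of the 12 groups and WT at 0.85 the lowest, with 9.33 ± 0.08 and 9.17 ± 0.08. In Q-tg it read 9.18, 9.12, 9.20, 9.21 and 9.19 at dose 0, 9.20, 9.21, 9.21, 9.26 and 9.28 at 0.75, and 9.20, 9.29, 9.29, 9.26 and 9.24 at 0.85. In R-tg it read 9.30, 9.32, 9.22, 9.12 and 9.27 at dose 0, 9.17, 9.18, 9.17, 9.26 and 9.41 at 0.75, and 9.31, 9.21, 9.08, 9.15 and 9.32 at 0.85. The 3 R-tg groups overlapped throughout.

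**Figure D2:**
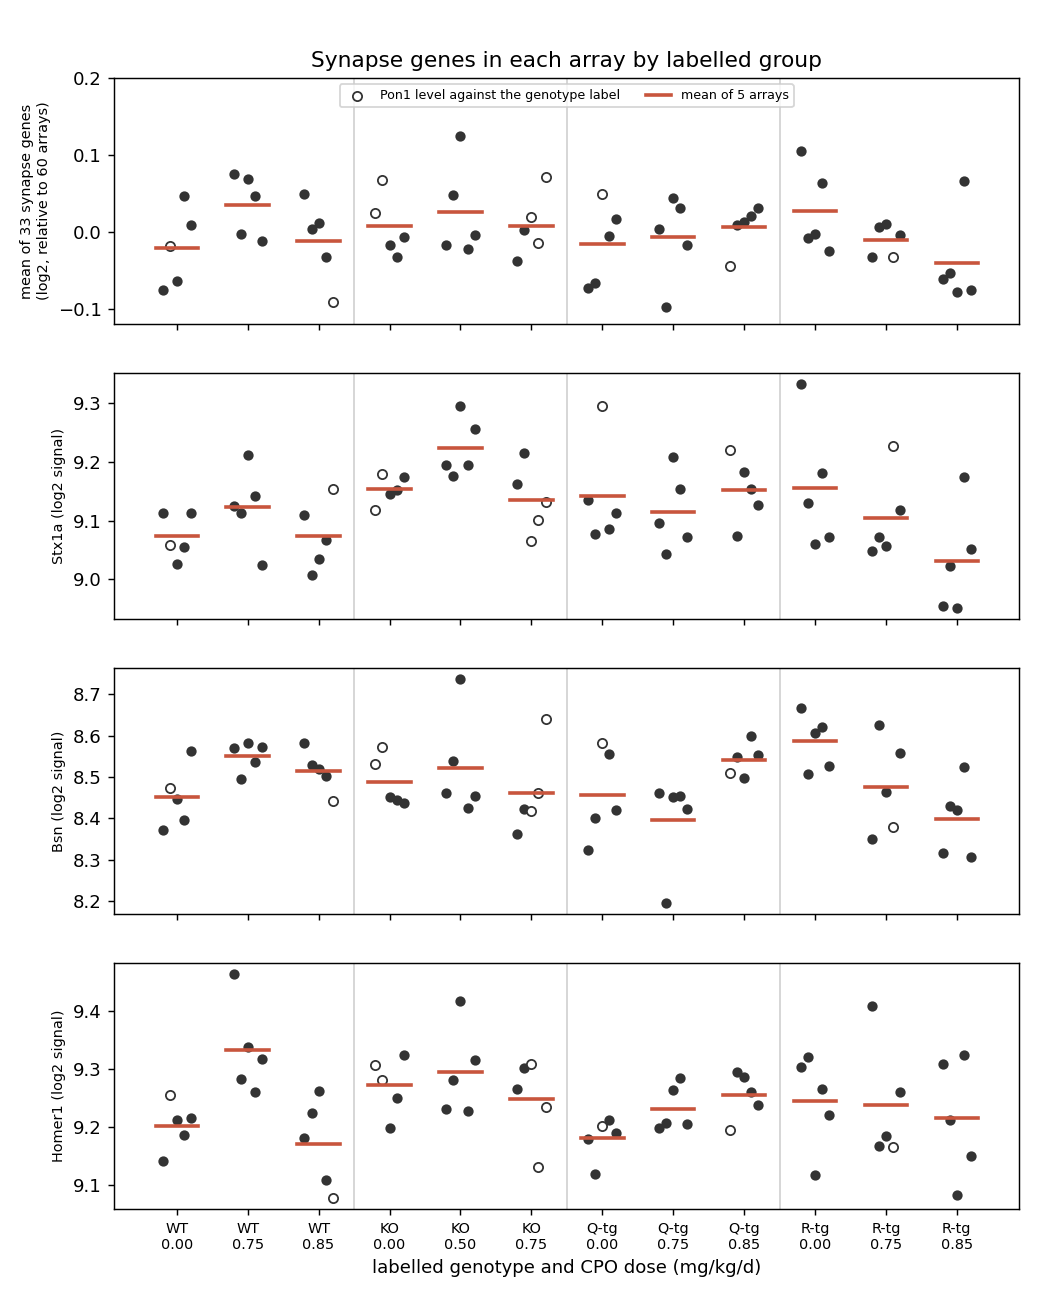
Mean of the 33 synapse genes, each taken relative to its mean over 60 arrays (top), and log2 signal of Stx1a, Bsn and Homer1 (below) in each array, by labelled genotype and CPO dose in mg/kg/d. Red bars are means of 5 arrays and open points are the 10 arrays whose Pon1 level goes against the label. In the top panel R-tg at 0.85 has the lowest group mean (-0.041), with 1 array at 0.066 apart from the other 4.

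The contrasts in brains labelled WT ask how a normal PON1 background responds to CPO. At 0.75 mg/kg/d 30 of the 33 members had a higher mean than at dose 0, with a median log2 difference of 0.056, against 0.005 for all rows. None passed the limma test (0 of 33 members, 0% of 21789 rows, smallest adjusted p of a member 0.456). Without adjustment 4 members were under 0.05, which is near the 10.2% of all rows. They were Homer1, Shank1, Dlg2 and Dlg3, scaffold genes of the postsynaptic density, and all were higher, with 0.10 for both Dlg genes. Homer1, whose 5 values at each dose stand above, differed by 0.13 (SE 0.05, adjusted p 0.456) and was the 1 member whose groups did not overlap, as in 2.3% of all rows. Shank1 read 9.25, 9.44, 9.30, 9.48 and 9.41 at dose 0 and 9.57, 9.47, 9.62, 9.59 and 9.46 at 0.75. Its log2 difference of 0.17 (SE 0.07, adjusted p 0.461), or 12.4%, was the highest of any member in the 8 CPO contrasts, and the groups overlapped by a narrow margin. Shank2 went the other way, with a difference of -0.11. The median of the members was 0.055 without the arrays whose Pon1 went against the label, and it ran from 0.042 to 0.074 as each array was left out.

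The 25th percentile of the array was lower in WT at 0.75 than in its controls, 6.01 ± 0.06 against 6.09 ± 0.05 (SD, n = 5 each). With that percentile as a covariate the median of the members was 0.036, with 27 members higher and 1 under 0.05 without adjustment. The 6 skeletal muscle genes measured were all lower at 0.75, and their mean ran from 6.62 to 6.81 against 6.81 to 6.94 in the controls, so that the groups parted by a narrow margin. The 6 pituitary genes were also all lower, at 5.99 to 6.37 against 6.20 to 6.92. Of 8 astrocyte and radial glia markers 7 were higher at 0.75 (median 0.06), as were 5 of 6 of microglia (median 0.05) and 9 of 13 of neurons (median 0.03). Of the 5 arrays at 0.75, 4 had Xist or Eif2s3y below the olfactory receptor level, against 1 of the controls, and Dlg3 is X-linked. The part of those tissues, of these cell types and of sex in the result was not tested. At 0.85 mg/kg/d 21 members were higher and 12 lower, with a median of 0.012 near that of all rows (0.009), and 0 were under 0.05 without adjustment (2.1% of all rows). Again 0% of rows passed. Without the arrays against their label the median was 0.036, with 23 members higher, and without WT replicate 1 at 0.85 it was -0.005. Cplx2 (-0.06, SE 0.04) and Camk2a (0.08, SE 0.06) had the smallest p of the members there. At dose 0 Cplx2 had a mean of 9.08 ± 0.07 and at 0.85 one of 9.02 ± 0.07. Its difference was -0.04 without WT replicate 2 at 0.85, and that of Camk2a was 0.04 without replicate 1.

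In brains labelled KO, which by label lack the enzyme that clears CPO, about as many members were higher as lower at the higher dose. At 0.50 mg/kg/d 22 members were higher and 11 lower, with a median of 0.02, and at 0.75 mg/kg/d 16 were higher and 17 lower, with a median of -0.003. In both contrasts 0 of 33 members and 0% of rows passed, and 0 members were under 0.05 without adjustment (1.84% and 2.90% of all rows). At 0.50 the smallest p values belonged to Unc13a, the priming factor (9.96 ± 0.08 against 9.87 ± 0.07, difference 0.09, SE 0.05), and Nlgn1 (10.24 ± 0.05 against 10.16 ± 0.05, difference 0.08, SE 0.05). At 0.75 they belonged to Dlg4 (10.33 ± 0.07 against 10.40 ± 0.03, difference -0.07, SE 0.04) and again Nlgn1 (difference 0.06, SE 0.05). Pon1 was high in 2 of the 5 KO controls and 3 of the 5 arrays at 0.75, and the medians without the arrays against their label were 0.042 and 0.002. As each array was left out, the median ran from -0.004 (without KO replicate 4 at 0.50) to 0.033 (without its replicate 5) at 0.50, and from -0.018 (without KO replicate 1 at 0.75) to 0.020 (without control replicate 2) at 0.75. The Nlgn1 difference at 0.75 was 0.04 without replicate 4.

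In brains labelled Q-tg somewhat more members were higher than lower. At 0.75 mg/kg/d 21 were higher and 12 lower, with a median of 0.01, and at 0.85 mg/kg/d 23 were higher and 10 lower, with a median of 0.02. Again 0 members and 0% of rows passed in both contrasts. Without the arrays against their label the median at 0.75 was 0.024, with 25 members higher, and at 0.85 it was 0.049, with 28 higher and 4 in place of 0 under 0.05 without adjustment. As each array was left out it ran from 0.004 (without control replicate 2) to 0.030 (without replicate 3 at 0.75) at 0.75, and from 0.007 (without control replicate 2) to 0.039 (without control replicate 3) at 0.85. Snap25, the SNARE of the presynaptic membrane, read 11.22, 11.11, 11.18, 11.22 and 11.30 at dose 0. It read 11.30, 11.22, 11.20, 11.46 and 11.35 at 0.75 and 11.27, 11.26, 11.27, 11.32 and 11.28 at 0.85, so that all groups overlapped. Its differences were 0.10 (SE 0.04) and 0.07 (SE 0.04), and the first was the 1 member under 0.05 without adjustment (2.35% of all rows). Cplx1 at 0.75 differed by 0.10 (SE 0.07). Without replicate 4 at 0.75 the differences there were 0.06 for both Snap25 and Cplx1. Dlg3, the receptor anchor, read 8.81, 8.77, 8.97, 8.80 and 8.90 at dose 0 and 8.93, 8.95, 8.97, 8.90 and 8.89 at 0.85, a difference of 0.08 (SE 0.04). The highest control was the array labelled Q-tg with low Pon1, and without the arrays that went against their label the difference was 0.11.

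In brains labelled R-tg most members had lower means at both doses, which share the same 5 controls. At 0.75 mg/kg/d 27 of 33 were lower, with a median of -0.037 against -0.016 for all rows, and at 0.85 mg/kg/d 29 of 33 were lower, with a median of -0.063 against -0.008. All 15 presynaptic members were lower at each dose, while 41.0% of all rows were higher at 0.75 and 45.1% at 0.85. None passed the limma test (0 of 33 members and 0% of rows at either dose, smallest adjusted p 0.898 and 0.987). Without adjustment 5 members at 0.75 and 8 at 0.85 were under 0.05, all lower, against 5.31% and 4.86% of all rows.

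At 0.75 the smallest p belonged to Nlgn2, the neuroligin of inhibitory synapses, and Nlgn3. Nlgn2 read 10.18, 10.09, 10.06, 10.05 and 10.18 at dose 0 and 10.10, 10.04, 9.98, 10.04 and 9.83 at 0.75. The difference was -0.12 (SE 0.05, adjusted p 0.898), and the groups overlapped. Without R-tg replicate 5 at 0.75 it was -0.07. Nlgn3 read 10.84, 10.71, 10.73, 10.74 and 10.79 against 10.73, 10.66, 10.63, 10.72 and 10.65, a difference of -0.08 (SE 0.04). The other 3 under 0.05 without adjustment were Nrxn2, Nrxn3 and Cplx1, with -0.10, -0.08 and -0.14.

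At 0.85 Bsn and Stx1a, whose values stand above, differed by -0.19 (SE 0.06, adjusted p 0.987) and -0.12 (SE 0.05, adjusted p 0.987). Without R-tg control replicate 1 the Stx1a difference was -0.08. Shank1 read 9.60, 9.49, 9.43, 9.50 and 9.62 at dose 0 and 9.31, 9.27, 9.34, 9.42 and 9.35 at 0.85. It was the 1 member whose groups did not overlap, as in 0.252% of all rows, and its difference of -0.19 (SE 0.07), or 12.3% lower, was the lowest of any member in the 8 CPO contrasts. The other 5 under 0.05 without adjustment were Nlgn2, Syp, Camk2a, Nlgn3 and Camk2b. The mean of the 33 members, taken relative to all 60 arrays, was -0.061, -0.053, -0.078, -0.076 and 0.066 in replicates 1 to 5 at 0.85 and 0.104, -0.008, -0.025, -0.003 and 0.063 in the controls. Replicate 5 at 0.85 stood apart on the side of the controls, and replicate 1 was the highest control.

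The R-tg medians moved with these 2 arrays. Without replicate 5 at 0.85 the median of the members at that dose was -0.108, and without replicate 1 of the controls it was -0.048 at 0.85 and -0.016 at 0.75. Without both it was -0.080 at 0.85. Without control replicate 3 it was -0.058 at 0.75. Without the arrays against their label, of which R-tg replicate 3 at 0.75 is 1, the median was -0.053 at 0.75 and -0.063 at 0.85. With the 25th percentile of the array as covariate the medians were -0.032 at 0.75 and -0.058 at 0.85. Of the 11 neural progenitor markers 9 were higher at 0.85, with a mean of 8.96 to 9.11 against 8.83 to 9.08 in the controls, and of the 13 neuronal markers 9 were lower, at 11.29 to 11.30 against 11.28 to 11.36. Of the 8 astrocyte and radial glia markers 7 were lower, at 9.61 to 9.72 against 9.65 to 9.80. At 0.75 most markers of each cell type of the brain were lower than in the controls. These were 11 of 13 for neurons (11.23 to 11.32 against 11.28 to 11.36), 6 of 8 for astrocytes and radial glia (9.61 to 9.74 against 9.65 to 9.80) and 5 of 6 for the oligodendrocyte lineage. They were 6 of 6 for microglia (7.13 to 7.24 against 7.17 to 7.30), 6 of 6 for endothelium and 7 of 11 for neural progenitors (8.82 to 9.03 against 8.83 to 9.08). The part of these cell types in the result was not tested.

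**Figure D3:**
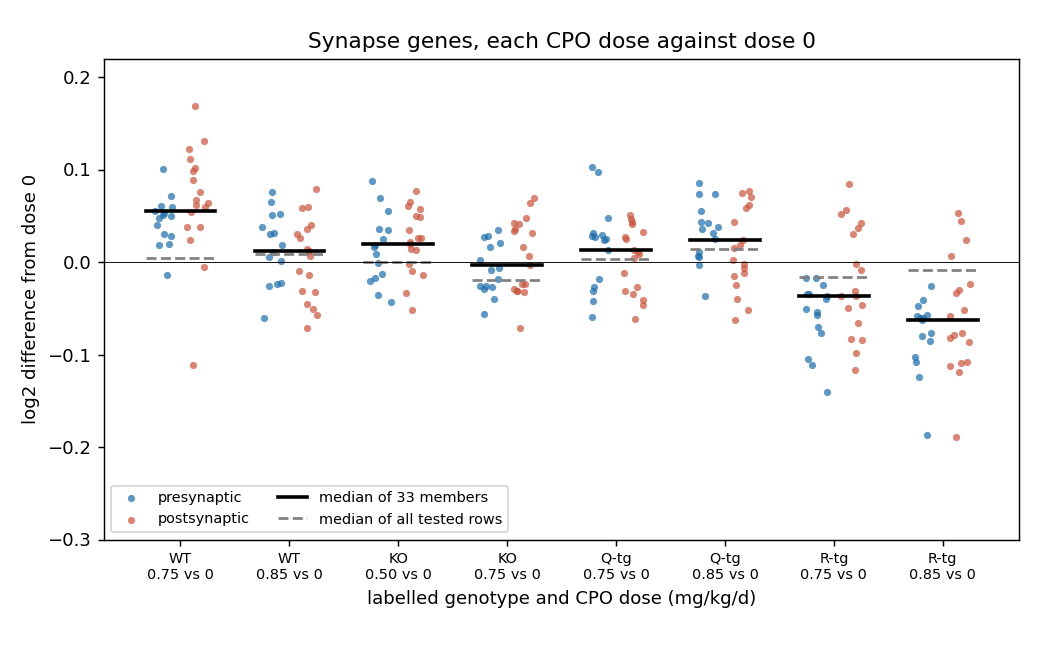
Log2 difference of each synapse gene from dose 0 (vertical axis) in 8 contrasts of labelled genotype and CPO dose in mg/kg/d, with presynaptic genes in blue and postsynaptic genes in red. Black bars are medians of the 33 members and dashed bars medians of all 21789 rows. The member medians run from -0.063 (R-tg at 0.85) to 0.056 (WT at 0.75), and no gene passed the test.

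At dose 0 the labelled genotypes were compared with WT, and these contrasts share the 5 WT controls. In KO 24 members were higher (median 0.029), in Q-tg 19 (median 0.006) and in R-tg 28 (median 0.052), while the medians of all rows were 0.018, 0.004 and 0.013. In each of the 3 contrasts 0 of 33 members and 0% of rows passed. Without adjustment 2 members in KO, 0 in Q-tg and 3 in R-tg were under 0.05, against 3.25%, 1.66% and 3.93% of all rows. Dlg4 read 10.25, 10.36, 10.27, 10.36 and 10.31 in WT and 10.37, 10.43, 10.39, 10.41 and 10.39 in KO. The difference was 0.09 (SE 0.04, adjusted p 0.999), and Dlg4 and Stx1a were the 2 members whose groups did not overlap, as in 0.633% of all rows. Dlg3 read 8.76, 8.94, 8.83, 8.78 and 8.80 in WT against 9.00, 8.82, 8.88, 8.94 and 8.96 in KO (0.10, SE 0.04). Without the arrays whose Pon1 went against the label, the median for KO was 0.000 and 16 of 33 members were higher, while the differences of Dlg4 and Dlg3 were 0.10 and 0.14. As each array was left out in turn, the KO median ran from 0.015 (without KO replicate 2) to 0.048 (without WT replicate 4). Without the arrays against their label the Q-tg median was -0.012, with 14 members higher, and the R-tg median 0.056, with 25 higher. The Q-tg median was -0.016 without WT replicate 1 and 0.025 without WT replicate 4.

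In Q-tg the members with the smallest p against WT were Snap25 (-0.08, SE 0.04) and Unc13a (0.07, SE 0.05, and 0.04 without Q-tg replicate 3). In R-tg they were Nlgn2, with 9.94, 10.07, 9.96, 10.06 and 9.96 in WT and the R-tg values given above, and Bsn. The differences were 0.12 (SE 0.05) and 0.14 (SE 0.06). Both genes thus had high R-tg controls, which are also the controls of the R-tg dose contrasts. The R-tg median without replicate 1 of those controls was 0.033.

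Whether the CPO response differed between labels was tested as an interaction. At 0.75 mg/kg/d the response of R-tg minus that of WT was below 0 in 30 of 33 members, with a median of -0.090 against -0.022 for all rows. No member passed (0 of 33, smallest adjusted p 0.306), and 1 row of 21789 did, 0.00459%. Without adjustment 8 members were under 0.05, against 13% of all rows. Nlgn2 (-0.21, SE 0.06, adjusted p 0.306) and Nlgn3 (-0.14, SE 0.05, adjusted p 0.314) had the smallest p. The WT arrays at 0.75 read 10.14, 10.03, 10.08, 10.07 and 10.10 for Nlgn2. With the array's 25th percentile as covariate the median was -0.064, and without the arrays against their label it was -0.108.

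The other 4 interactions gave 0 of 33 members and 0% of rows past the threshold. The medians were -0.060 for KO minus WT at 0.75, -0.036 for Q-tg minus WT at 0.75, 0.018 for Q-tg minus WT at 0.85 and -0.082 for R-tg minus WT at 0.85. Homer1 (-0.15, SE 0.07) and Dlg3 (-0.13, SE 0.06) had the smallest p for KO, and Shank1 (-0.21, SE 0.10) and Bsn (-0.16, SE 0.08) for Q-tg at 0.75. For Q-tg at 0.85 they were Cplx2 (0.10, SE 0.06) and Homer1 (0.11, SE 0.07), and for R-tg at 0.85 Bsn (-0.25, SE 0.08) and Camk2a (-0.20, SE 0.08). Without adjustment 2, 2, 0 and 5 members were under 0.05 in these 4, against 7.59%, 2.23%, 1.87% and 4.76% of all rows. Without R-tg replicate 5 at 0.85 the median of the last was -0.123, and without R-tg control replicate 1 it was -0.059. The KO median ran from -0.079 to -0.036 (without WT replicate 1 at 0.75) as each array was left out, and the Q-tg median at 0.75 from -0.059 (without control replicate 1) to -0.023 (without replicate 3 at 0.75). Shank1 in the latter was -0.14 without that replicate 3. The Q-tg median at 0.85 ran from -0.021 (without WT replicate 5 at 0.85) to 0.035 (without its replicate 3). With the 25th percentile as covariate the KO median was -0.039, and 0 members were under 0.05 for KO and for Q-tg at 0.75, in place of 2 each. Without the arrays against their label the 4 medians were -0.061, -0.035, 0.017 and -0.099. All interactions at one dose share the WT arrays.

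Dams of the same group differed in the members together. For this, each gene's deviation from its group mean was correlated over the 60 arrays. The points share array, hybridisation and normalization, and the values are a description. Of the 528 pairs of members 486 were above 0 and 174 above 0.5, and the mean r was 0.37. Over all rows the mean r was 0.04, and over the 10418 rows at least as bright as the dimmest member it was 0.19. Among presynaptic members the mean was 0.47, among postsynaptic members 0.36, and between the sides 0.34. Pairs of one role (55 pairs, such as the AMPA receptor subunits) had 0.40 and the other pairs 0.37. The means within the postsynaptic side, between the sides and by role hold the Shank2 row described further on. Its pairs with the other postsynaptic scaffolds ran from r -0.57 (Dlg3) to -0.02 (Shank3), and these means were not computed without it. The mean of the presynaptic and that of the postsynaptic members correlated with r 0.74 (rho 0.74, and r 0.72 without the 2 arrays farthest from the median).

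The closest pair joined the sides of the cleft. Nlgn3, a neuroligin, and Nrxn2, a neurexin, had r 0.84 (rho 0.83). In KO at 0.75 Nlgn3 read 10.79, 10.62, 10.70, 10.66 and 10.66 and Nrxn2 read 10.51, 10.25, 10.27, 10.33 and 10.31, with replicate 1 highest in both. In R-tg at 0.85 they read 10.66, 10.71, 10.64, 10.61 and 10.79 and 10.27, 10.33, 10.29, 10.30 and 10.49, with replicate 5 highest in both. In Q-tg at 0.75 replicate 3 was the lowest in both, at 10.62 and 10.25. The next pairs were Gria3 with Nlgn1 (0.82), Nlgn3 with Bsn (0.79), Cplx1 with Sv2a (0.78), Dlg2 with Gria3 (0.77) and Syn1 with Sv2a (0.77). Of the 42 pairs below 0, 27 held Shank2, and the lowest was Shank2 with Dlg3 (r -0.57, rho -0.53). Without Shank2 the mean r was 0.41, and without the arrays against their label it was 0.38.

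A second axis lay across the common one. The first principal component of the deviations held 41.9% of their variance and the second 16%. On the second, Cplx1 (0.46), Syn1 (0.25), Stx1a (0.22), Sv2a (0.21) and Syp (0.18) lay at one end, and Gria2 (-0.36), Grin2b (-0.26), Shank2 (-0.23), Gria3 (-0.22) and Shank1 (-0.20) at the other. Shank3 lay at 0.17 and Syt1 at -0.03. Cplx1 and Gria2 had r -0.33 with each other. Position on this axis also went with gene length: over the 33 members its correlation with the log2 span of the gene on GRCm38.p6 was r -0.61 (rho -0.67), where genes are not independent replicates. Syp and Sv2a span 14677 and 13957 bases, and Grin2b and Nlgn1 span 460395 and 911059. Other genes departed from this: Gria2 and Shank1 span 122778 and 51179, and Dlg2 (-0.12) and Nrxn3 (-0.03) span 1973059 and 1612235. The part of length in the pattern was not tested.

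**Figure D4:**
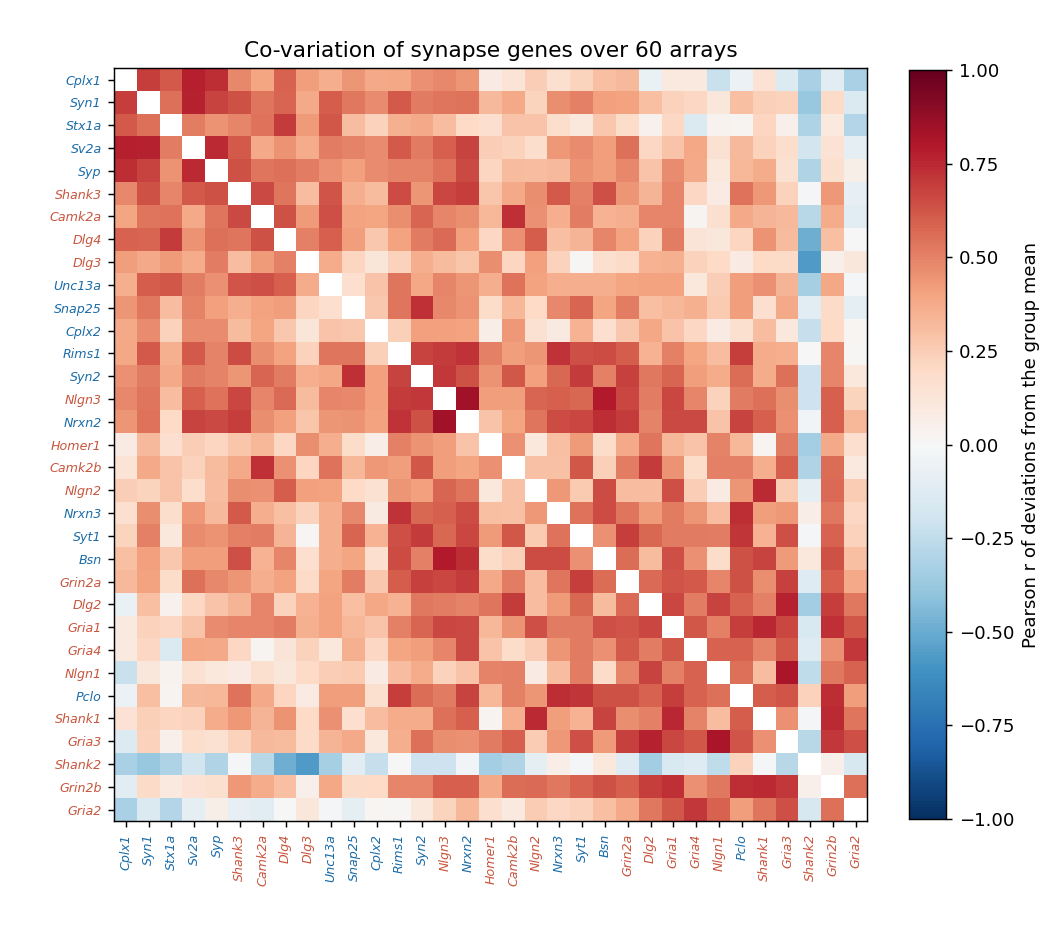
Pearson r between the deviations of 33 synapse genes from their group means over 60 arrays, ordered by the second principal component, with presynaptic names in blue and postsynaptic names in red. Color runs from -1 (blue) to 1 (red), and the diagonal is left blank. Most of the field is red, with 486 of 528 pairs above 0, and the row of Shank2 is the one that is mostly blue.

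The 25th percentile of an array, the signal below which 25% of its rows lie, ran from 5.92 to 6.26 over the 60 arrays (median 6.10, SD 0.07). With this percentile added to the model, the slope says by how much a gene's log2 signal differs for 1 log2 unit of the percentile. The slope of 20 members was below 0 and passed the limma test, 1 passed with a slope above 0, and 12 did not pass. In all rows 35.1% passed below 0 and 35.7% above. The median slope was -0.34 in the members and -0.09 in all rows. It was -0.39 in the 10418 rows at least as bright as the dimmest member, of which 59.8% passed below 0. The members' share was near that, though these rows were not matched to the members in brightness. In dim rows the median slope was 1.08. This percentile is computed from the same arrays as the genes, and the slopes describe the arrays.

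Of the postsynaptic members 13 of 18 passed below 0 (median slope -0.43), and of the presynaptic members 7 of 15 (median -0.26). All 4 AMPA receptor subunits passed, with slopes of -0.43 (Gria1), -0.59 (Gria2), -0.57 (Gria3) and -0.53 (Gria4). Dlg2, Dlg3 and Dlg4 passed with -0.44, -0.50 and -0.43. The steepest was Grin2a (-0.72, SE 0.22, adjusted p 0.003). On the 5 arrays with the lowest percentile (5.92 to 5.98) Grin2a read 7.88, 8.11, 8.10, 7.96 and 7.95, and on the 5 with the highest (6.23 to 6.26) 7.80, 7.86, 7.77, 7.76 and 7.63. The 2 sets of arrays did not overlap, but Grin2a was named for its steep slope on this percentile. The share of all rows that part in this way was not computed. The flattest were Nrxn3 (-0.05, SE 0.11) and Pclo (-0.06, SE 0.16), and Bsn, Rims1, Snap25, Stx1a, Cplx2 and Syt1 did not pass either. The postsynaptic members that did not pass below 0, beside Shank2, were Shank3 (adjusted p 0.382), Grin2b (0.0726), Camk2a (0.0855) and Nlgn2 (0.0748) in limma. The mean of the 33 members had r -0.46 with the percentile over deviations of 60 arrays (rho -0.45, and -0.40 without the 2 arrays farthest from the median). With the percentile regressed out, the mean r between members was 0.32 in place of 0.37. Between rows at least as bright as the dimmest member it was 0.09 in place of 0.19.

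**Figure D5:**
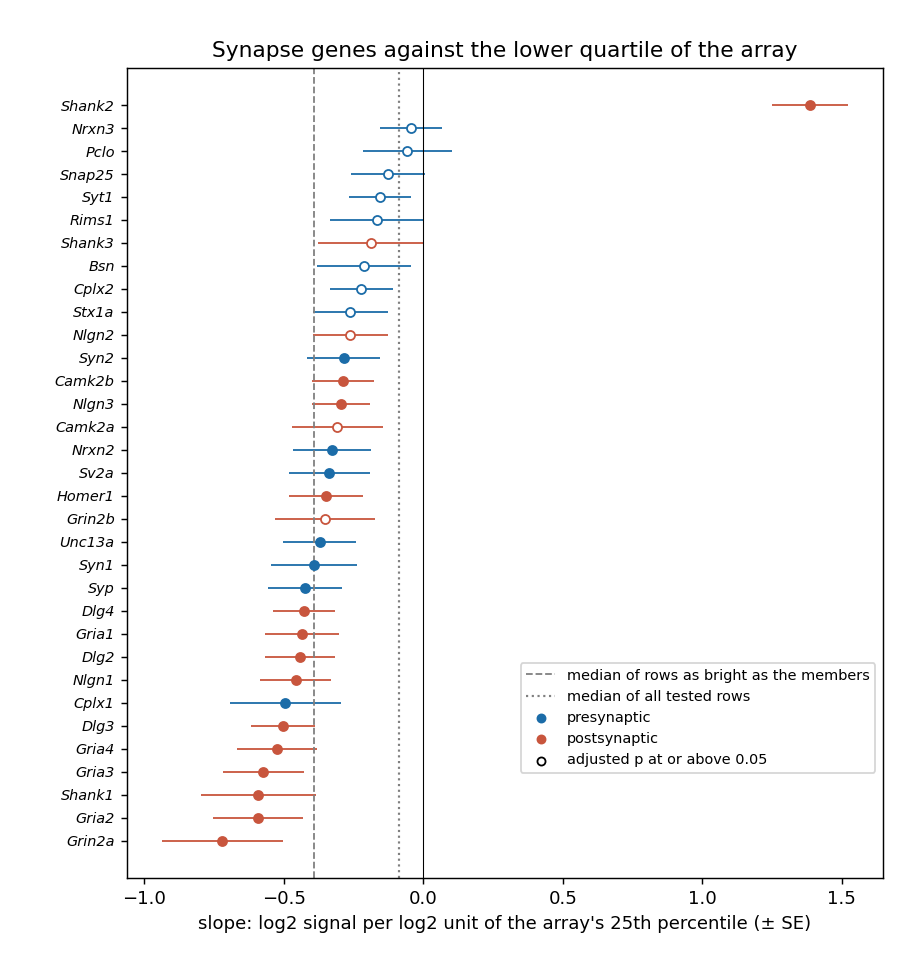
Slope of each synapse gene on the 25th percentile of its array, in log2 units of signal per log2 unit of the percentile, with bars of 1 SE, from 60 arrays. Filled points passed the limma test. Of the 33 genes 32 lie below 0, and Shank2 lies apart at 1.39.

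Shank2 ran against the rest, and its own rows disagreed. The row used here had a slope of 1.39 (SE 0.14, adjusted p 1.43e-12). It read 8.50, 8.64, 8.63, 8.70 and 8.66 on the 5 arrays with the lowest percentile and 9.07, 9.05, 9.00, 9.01 and 9.11 on the 5 with the highest. The 2 other rows of the gene, with means of 7.74 and 8.58, had slopes of 0.54 (SE 0.18) and -1.07 (SE 0.16). The second of these had r -0.36 with the row used and a mean r of 0.42 with the other members, against -0.18 for the row used. So the direction of Shank2 depends on which row stands for it. Dlg3, which had the lowest r with Shank2, read 8.91, 8.95, 9.03, 8.92 and 8.99 on the same 5 low arrays and 8.90, 8.67, 8.69, 8.79 and 8.79 on the 5 high ones. Unc13a was the other member with 3 rows: the row used had a slope of -0.37 and the others -0.005 and 1.62.

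Beyond the members, 115 other synapse genes in 6 lists were measured. None passed in any of the 16 contrasts (limma, 0 of 115 each). In WT at 0.75 mg/kg/d 96 were higher (median 0.052) and 7 were under 0.05 without adjustment (6.09%, against 10.2% of all rows). In R-tg 90 were lower at 0.75 (median -0.046, 16 or 13.9% under 0.05, against 5.31% of all rows) and 98 at 0.85 (median -0.051, 17 or 14.8%, against 4.86%). All 24 other vesicle protein genes measured had lower means at both R-tg doses, while 41.0% and 45.1% of all rows had higher means. Both doses share the same controls, where 21 of these 24 were higher than in WT at dose 0. Of 13 GABA and glycine receptor genes 7 were higher in R-tg at 0.75. The 2 with the smallest p in the F test were Gabra2, a GABA receptor subunit with group means from 9.55 (R-tg at 0.85) to 10.33 (KO at 0.50), and Cplx3, a complexin of ribbon synapses, from 5.86 to 6.23, both with an adjusted p of 0.95. The mean of Cplx3 over 60 arrays, 6.04, was not above the olfactory receptor level. These lists were chosen with earlier results of the same arrays known.

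The mean of the members followed these lists over the deviations of 60 arrays. Its r was 0.93 with the other glutamate receptor genes, 0.87 with adhesion genes and with release machinery, 0.77 with other postsynaptic scaffolds, 0.74 with GABA and glycine receptors and 0.70 with other vesicle proteins. With markers of cell types it was 0.54 for neurons, 0.54 for the oligodendrocyte lineage, 0.49 for astrocytes and radial glia, 0.44 for endothelium and 0.22 for microglia. It was near 0 for choroid plexus (0.05) and hindbrain (0.00) and below 0 for neural progenitors (-0.22), erythroid cells (-0.32) and skeletal muscle (-0.53). With the 25th percentile of the array regressed out these 3 were -0.49, -0.11 and -0.32, while neurons had 0.36 and endothelium 0.27. The oligodendrocyte lineage then had 0.62, astrocytes and radial glia 0.56 and microglia 0.30, all higher than before and, but for microglia, above neurons. Choroid plexus had -0.03 and hindbrain 0.17. The muscle genes also had r 0.74 with the 25th percentile of the array, and 4 of the 6 lay above the olfactory receptor level. The array, its normalization and the tissue taken are shared by all these points, and their parts were not tested.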

How the data were processed

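Fetal brain RNA of 60 dams, pooled per dam, was measured on 60 arrays in 12 labelled groups of 5. The authors deposited log2 signals, computed with RMA in the oligo package under R 2.15.1 per the submitters' processing notes. The deposited readme gives oligo 1.22.0. The signals were used as deposited, since scanner values were not used here. RMA draws all arrays to one distribution within its steps, which can shift dim and bright rows in opposite ways between arrays.

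Of 28858 rows, the platform annotation gave 1 gene symbol to 21789, several to 1621 and none to 5448, and the 21789 were tested. limma 3.58.1 in R 4.3.3 fitted 1 model of 12 groups to all arrays, with 2-sided moderated tests and Benjamini-Hochberg adjustment over the 21789 rows of a contrast at 0.05. Adjusted p-values in the text come from it, and the deposited table holds none. All tests were first tried on simulated data.

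The members, the gene lists and the tests were chosen with earlier results of these data known. The rule named, in each contrast, the 2 members with the smallest p, and with values per array the 3 members with the largest F, the steepest slopes and the closest and most opposed pairs. Any other member singled out was chosen after its values were seen. Same-numbered replicates were not paired: the median correlation of their deviations was -0.014, against 0.007 for other numbers, and 8 of 60 arrays correlated best with one of their own number. Alternatives were centring, array weights, other variance priors, a filter on dim rows, all rows of a gene, the 25th percentile as covariate, only the groups of a contrast, the replicate number as a block, and leaving out each array or the 10 against their label. Co-variation without Shank2 and a fit without 2 R-tg arrays were added after seeing the data. Promoters are from RefSeq, GRCm38.p6.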

Additional observations from a re-analysis of the deposited data

Results flagged for a closer look

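In groups of 5 arrays, 1 value was called far from the others when its gap to the nearest exceeded 0.71 of the group's range. Chance marks about 1 in 20 such sets. Among the 8 members that the rule named for values per array, 8 of 96 sets were marked, and 27 of 396 over all members. Nrxn2 held 4 of the 8: 10.51 in KO replicate 1 at 0.75 mg/kg/d (others 10.25 to 10.33), 10.49 in R-tg replicate 5 at 0.85 (others 10.27 to 10.33), 10.25 in Q-tg replicate 3 at 0.75 (others 10.36 to 10.39) and 10.23 in Q-tg replicate 1 at 0.85 (others 10.37 to 10.42). Bsn was 8.20 in Q-tg replicate 3 at 0.75, where the others lay between 8.42 and 8.46. Dlg3 was 8.69 in R-tg replicate 4 at 0.75 (others 8.85 to 8.91), and that array has one of the 5 highest 25th percentiles. Grin2a was 7.66 in Q-tg replicate 3 at 0.85 (others 7.80 to 7.84). Stx1a was 9.30 in Q-tg replicate 3 at dose 0 (others 9.08 to 9.14), an array whose Pon1 goes against its label, as do KO replicate 1 at 0.75 and Q-tg replicate 1 at 0.85. The mean of the 33 members was 0.066 in R-tg replicate 5 at 0.85, and in the other 4 it lay between -0.078 and -0.053.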

How the results depend on the processing

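In all alternatives run, 0 members passed the test in any contrast between groups, and 0 members passed the F test. The median of the members stayed below 0 in R-tg at both doses and above 0 in WT at 0.75 under each of them. It changed sign in WT at 0.85 (to -0.005 without WT replicate 1 at 0.85), KO at 0.50 (to -0.016 with array weights), KO at 0.75 (to 0.020 without KO control replicate 2), KO against WT (to -0.000 without the arrays against their label), Q-tg against WT (to -0.016 without WT control replicate 1) and the Q-tg interaction at 0.85 (to -0.021 without WT replicate 5 at 0.85). Rows past the threshold, none of them a member, moved as follows. The R-tg interaction at 0.75, with 1 row, had 0 with each array centred on its median, with the 25th percentile as covariate, with trend and robust priors, with the replicate number as a block (no member passed there either), with only the groups of the contrast, without the 10 arrays against their label and without both R-tg arrays named above, and 2 with array weights. WT at 0.75, with 0 rows, had 39 with array weights and 1 among rows above the olfactory receptor level. R-tg at 0.85 had 1 with array weights. The F test had 38 with array weights and 79 without the 10 arrays, where KO against WT had 29. With each array left out in turn, the counts ran from 0 to 1 for R-tg against WT, for WT at 0.75 and for the R-tg interaction at 0.75. The number of members with a slope below 0 past the threshold, 20, was 7 with the median of the array in place of its 25th percentile, 12 with the 10th percentile and 31 with each array centred on its median. The cause was not tested. Differences of a member between 2 groups had an SE of 0.037 to 0.078, and interactions one of 0.052 to 0.110. This sets what 5 arrays a group can resolve. Of the rows used for the members, the lowest mean was 7.84 (Grin2a), above the olfactory receptor level of 6.54.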
